A study of Homo sapiens with 4 samples.

Results

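Chromosome 19 carries long runs of genes for KRAB zinc finger proteins, and the 353 chromatin regions described here are those gained after anthracycline treatment inside 4 windows that hold such runs. The regions come from ATAC-seq, in which the Tn5 transposase cuts and tags DNA that is accessible in chromatin, of K562 cells, a human line from chronic myeloid leukaemia. The groups were 10 µM Doxo for 4 h, 10 µM diMe-Doxo for 4 h, 20 µM Acla for 4 h and an untreated control, with 1 deposited sample per group and no genetic change named in the labels. The authors deposited 3 lists of regions with higher signal than in the control, 1 list per drug, with coordinates on GRCh37. The union of the 3 lists held 100205 regions, of which 2675 were on chromosome 19. A region was a member when its midpoint lay between 19.8 and 24.4 Mb (window 1, next to the centromere), 36.6 and 38.2 Mb (window 2), 44.3 and 45 Mb (window 3) or 52.3 and 59.1 Mb (window 4, at the end of the long arm). The windows held 51, 19, 6 and 277 regions, and the other 2322 regions of the chromosome served for comparison. Just inside the edges of window 1 lay chr19:19849601-19850526 (Doxo alone) and chr19:24345419-24346328 (Doxo and Acla). The nearest regions outside were chr19:19788228-19788675 and chr19:28286256-28286971 (both Doxo alone), the latter 3886.6 kb beyond the window's end. For window 4 the first region inside was chr19:52708965-52709512 (Doxo alone) and the nearest outside chr19:52232945-52233507 (Acla alone).

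KRAB zinc finger proteins bind DNA through arrays of C2H2 zinc fingers, and many bind transposable elements. Their KRAB domain recruits TRIM28 (KAP1), a corepressor that brings the histone methyltransferase SETDB1 and heterochromatin protein 1, and the zinc finger gene clusters themselves carry H3K9me3 over their coding exons. Doxo is doxorubicin, an anthracycline that intercalates into DNA, poisons topoisomerase II and evicts histones. diMe-Doxo is its dimethylated form, and Acla is aclarubicin, an anthracycline with a longer sugar chain. Aclarubicin is known to evict histones without the DNA breaks that doxorubicin makes, and the title of the study sets these activities of the drugs apart.

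The windows were not uniform in gene content. In the gene order of RefSeq on GRCh38.p14, used for names and neighbours only, 36 of the 38 protein-coding genes from ZNF14 to ZNF254 in band 19p12 (window 1) were C2H2 zinc finger genes by symbol. The run from ZNF565 to ZFP30 (window 2) held 27 of 28, and the run from ZNF283 to ZNF180 (window 3) held 20 of 20. Window 4 is a composite. Its first run, ZNF577 to ZNF331, held 38 zinc finger genes of 43. The run that follows, from DPRX up to but not counting ZNF628, held 0 of 72. It includes 12 LILR and LAIR genes, 7 KIR genes, both families of immune cell receptors, and 3 NLRP genes. The last run, ZNF582 to MZF1, held 59 of 76 and includes TRIM28. ZNF628 and any genes between it and ZNF582 were counted in none of these runs, so the runs do not cover the whole window. Gene positions on the build of the files were not used here, so single regions are given by coordinates and are not assigned to genes, exons or introns. The cell type could not be checked against marker genes in lists of gained regions.

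The regions of each list came from 2 treated and 2 control libraries. The control reads were identical in all 3 lists at every region they share, so the 3 comparisons with control share their controls. Treated libraries held 3534855 to 7266289 reads in the listed regions and control libraries 120492 to 253175. How deeply the libraries were sequenced in all is unknown. The lowest control value was 1 read in every list (a signal of 1.44 and 1.39 in the Doxo list, for example), so a library with no read cannot be told from a library with 1. The labels do not tie the libraries to separate cultures, so p-values measure only the spread between these libraries, which may be technical. Intervals given for densities and shares cover counting error only, and neighbouring regions are not independent.

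Gained regions were sparser in windows 1 to 3 than in the rest of chromosome 19. In window 4 the first 2 Mb was sparser too, while the remainder, which held most members, was not. That cut within window 4 was set after the counts were seen. Leaving out stretches over 1 Mb without any listed region, the 4 windows together held 28.0 union regions per Mb (25.2 to 31.1, exact 95% Poisson interval) over 12.6 Mb, against 56.3 (54.0 to 58.7) over 41.2 Mb in the rest of the chromosome. The ratio of densities was 0.497 (0.443 to 0.556). The whole genome held 36.0 regions per Mb, above the 4 windows together and below the rest of chromosome 19.

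The windows differed among themselves. Window 1 held 14.5 regions per Mb (10.8 to 19.1), window 2 held 11.9 (7.15 to 18.5) and window 3 held 8.57 (3.15 to 18.7). Their intervals overlap, so these 3 windows are not told apart by density. Window 4 held 40.8 (36.1 to 45.9), above each of them, below the rest of the chromosome and with an interval that lies above the genome value. Taken without window 4, the other windows held 0.232 of the density of the rest (0.182 to 0.292), while window 4 alone held 0.724 (0.637 to 0.820). Neighbouring regions lay a median of 35.4 kb apart in window 1, 43.3 kb in window 2 and 25.4 kb in window 3, against 8.13 kb in window 4 and 7.28 kb in the rest. In steps of 1 Mb, those only partly in a window were left out, so window 3 had no step and window 2 only that from 37 Mb. The 11 steps left for the clusters held 2 to 60 regions with a median of 25. The 38 steps of the rest held 4 to 113 with a median of 52, so the ranges overlap.

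The ratio was lowest for Doxo. The Doxo list held 23.5 regions per Mb in the 4 windows and 53.5 in the rest, a ratio of 0.439 (0.388 to 0.496). The diMe-Doxo list held 9.91 and 13.6 per Mb, a ratio of 0.730, and the Acla list 14.1 and 21.6 per Mb, a ratio of 0.653. Over the genome the lists held 23.98, 18.97 and 22.03 regions per Mb (Doxo, diMe-Doxo, Acla), so the rest of the chromosome exceeded the genome in the Doxo list but not in the others. In windows 1 to 3 the ratios were 0.177 (Doxo), 0.494 (diMe-Doxo) and 0.477 (Acla). Window 4 had nearly the diMe-Doxo density of the rest of the chromosome, at a ratio of 0.932 (0.734 to 1.17), and an interval that includes 1. The ratio for the Acla list was 0.851 under stricter limits on the authors' values (FDR up to 0.01, log2 fold from 2). It rests on 77 regions in the windows and 296 in the rest. No interval was computed for it, so it is not shown to differ from 1.

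**Figure D1:**
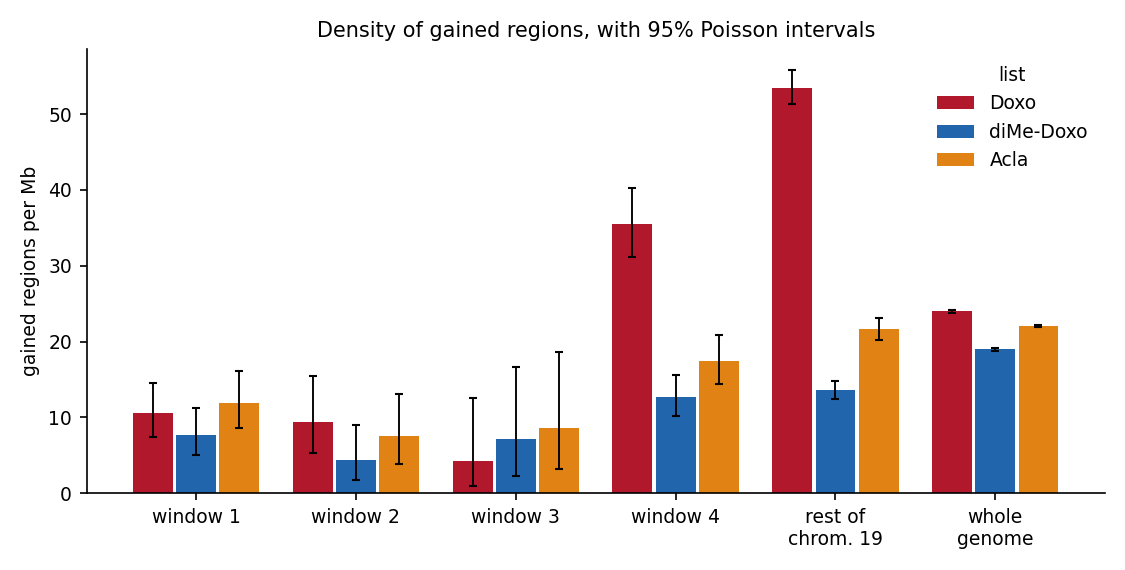
Gained regions per Mb (y axis) in each window, the rest of chromosome 19 and the whole genome for the Doxo, diMe-Doxo and Acla lists. Bars are densities over the length without empty stretches longer than 1 Mb, and error bars are exact 95% Poisson intervals. The Doxo bar stands at 53.5 in the rest of the chromosome and at 10.5 in window 1, where the interval of the Acla bar reaches 16.2.

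The order of the lists by length also differed between the windows. In the rest of the chromosome 2205 regions were in the Doxo list, 892 in the Acla list and 560 in the diMe-Doxo list, or 3.94 Doxo regions for each diMe-Doxo region. The 4 windows held 296, 178 and 125, a ratio of 2.37. In window 1 the Acla list was the longest, with 42 regions against 37 for Doxo and 27 for diMe-Doxo. Window 2 held 15 Doxo, 12 Acla and 7 diMe-Doxo regions. In window 3 all 6 regions were in the Acla list, 5 were in the diMe-Doxo list and 3 in the Doxo list. Window 4 held 241, 118 and 86 regions for Doxo, Acla and diMe-Doxo. Over the genome there were 1.26 Doxo regions for each diMe-Doxo region, against 1.37 in window 1, 2.14 in window 2, 0.6 in window 3 and 2.80 in window 4. Acla was given at a higher dose than the other drugs, and its counts are set beside theirs without a comparison.

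The members were then sorted by the lists that hold them. Regions found with Doxo alone made up 165 of 353 (46.7%), and regions found with all 3 drugs 92 (26.1%). Over the genome these shares were 29.5% and 28.7%, and in the rest of the chromosome all 3 drugs took 20.8%. Another 33 were shared by Doxo and Acla (4.04% of the genome, 12.9% of the rest of the chromosome). Acla alone held 30 (13.8% and 3.23%, in the same order), and 23 were shared by diMe-Doxo and Acla (14.6% and 1.42%). Doxo and diMe-Doxo shared 6 (4.4% and 1.46%), and 4 were found with diMe-Doxo alone (4.97% and 0.388%). Doxo alone accounted for 59.7% of the rest of the chromosome, a difference of -13.0 percentage points (-18.5 to -7.40, Newcombe 95% interval). In windows 1 to 3 only 19.7% of regions were of Doxo alone, -40.0 points from the rest (-47.7 to -29.5). In window 4 the share was 54.2%, -5.58 points from the rest (-11.8 to 0.529), an interval that includes 0. Regions that were missing from the Doxo list made up 16.1% of the members, 27.6% of windows 1 to 3, 5.04% of the rest and 33.4% of the genome. Absence from a list is not absence of signal, since a region just short of the authors' limits (p at most 0.05 and log2 fold at least 1.5) is not listed.

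Regions shared by diMe-Doxo and Acla but not Doxo were denser in the windows than in the rest of the chromosome (1.82 against 0.800 per Mb), and sparser than over the genome (5.27 per Mb). There were 23 of them in the 4 windows and 33 in the rest, a density ratio of 2.28 (1.28 to 4.00), and in windows 1 to 3 there were 11, a ratio of 2.36 (1.08 to 4.80). For regions of Doxo alone the ratio was 0.389 in the 4 windows and 0.0767 in windows 1 to 3, where 15 such regions were found. Of the diMe-Doxo members 92.0% were also Acla regions, against 92.3% in the rest of the chromosome and 82.2% in the genome.

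**Figure D2:**
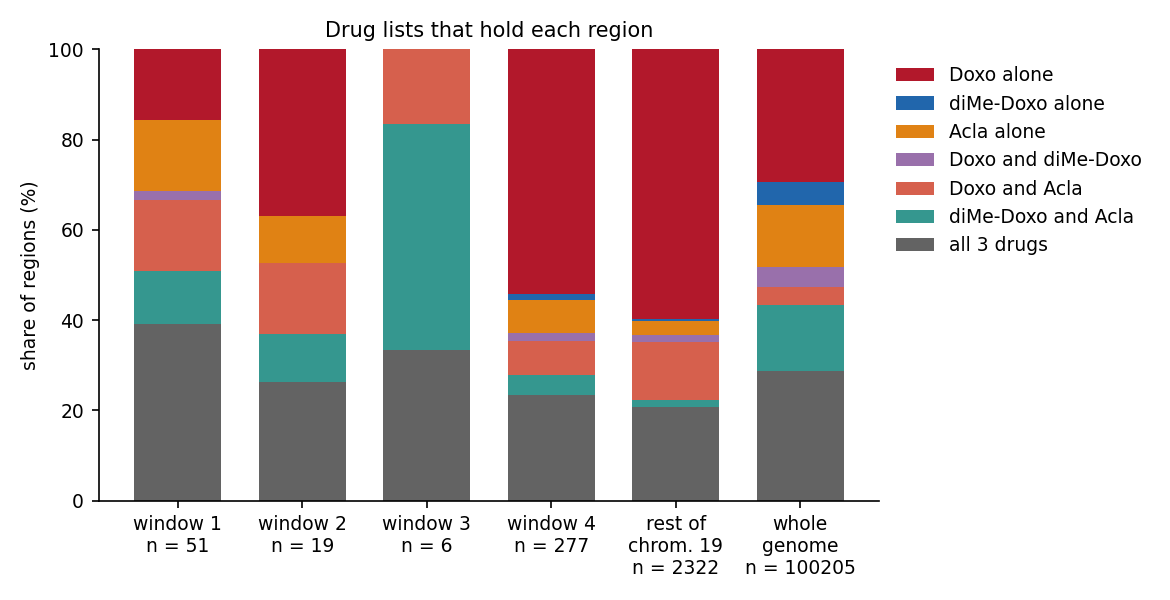
Share of union regions (y axis, percent) held by each combination of the 3 lists in each window, the rest of chromosome 19 and the whole genome, with the number of regions under each bar. Doxo alone (top of each bar) takes 59.7% of the rest of the chromosome, 54.2% of window 4 and 15.7% of window 1, and no region of window 3.

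Many of the gained regions of window 1, but not all, lay in a span of 1 Mb. From 22.3 to 23.3 Mb there were 28 of its 51 regions, including 15 of its 20 regions of all 3 drugs. All 28 were in the Acla list, 19 in the Doxo list and 18 in the diMe-Doxo list, and none was found with Doxo alone. The limits of this span were chosen after its counts were seen. Elsewhere in the window some stretches held few regions or none. No region lay between 20119505 and 21153079 (1.03 Mb) or between 21155428 and 21649056 (0.494 Mb), and the stretch from 23.3 to 23.8 Mb held 1.

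Window 4 was uneven along its length. Its first 2 Mb, from 52.3 to 54.3 Mb, held 12 regions (3.10 to 10.5 per Mb, Poisson interval), with no region between 52729876 and 53313076 (0.583 Mb) or between 53594333 and 54040614 (0.446 Mb). The next 2 Mb, from 54.3 to 56.3 Mb, held 119 regions, or 59.5 per Mb (49.3 to 71.2), which overlaps the rest of the chromosome. The Doxo list held 111 of these regions, the Acla list 36 and the diMe-Doxo list 28, and 78 (65.5%) were of Doxo alone. Of the stretches of a full 0.5 Mb, those with the most regions lay here: 45 regions from 55.8 to 56.3 Mb, all of them in the Doxo list and 30 in it alone, and 31 from 55.3 to 55.8 Mb, again all in the Doxo list and 26 in it alone. The last span, from 56.3 to 59.1 Mb, held 146 regions, or 52.2 per Mb (44.1 to 61.4), of which 64 (43.8%) were of Doxo alone. These spans, too, were set after the counts were seen, and no boundary of a gene run was placed on them.

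Within the last span the make-up changed from stretch to stretch. From 56.8 to 57.3 Mb there were 25 regions, with 20 in the Acla list and 15 each in the Doxo and diMe-Doxo lists. From 57.3 to 57.8 Mb there were 20 regions, with 14 in the Acla list and 9 each for the other drugs. The stretch from 58.3 to 58.8 Mb held 26, of which 14 were of all 3 drugs. The last 0.3 Mb before the end of the window held 36 regions, all in the Doxo list and 30 in it alone, a higher density than in any full stretch.

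**Figure D3:**
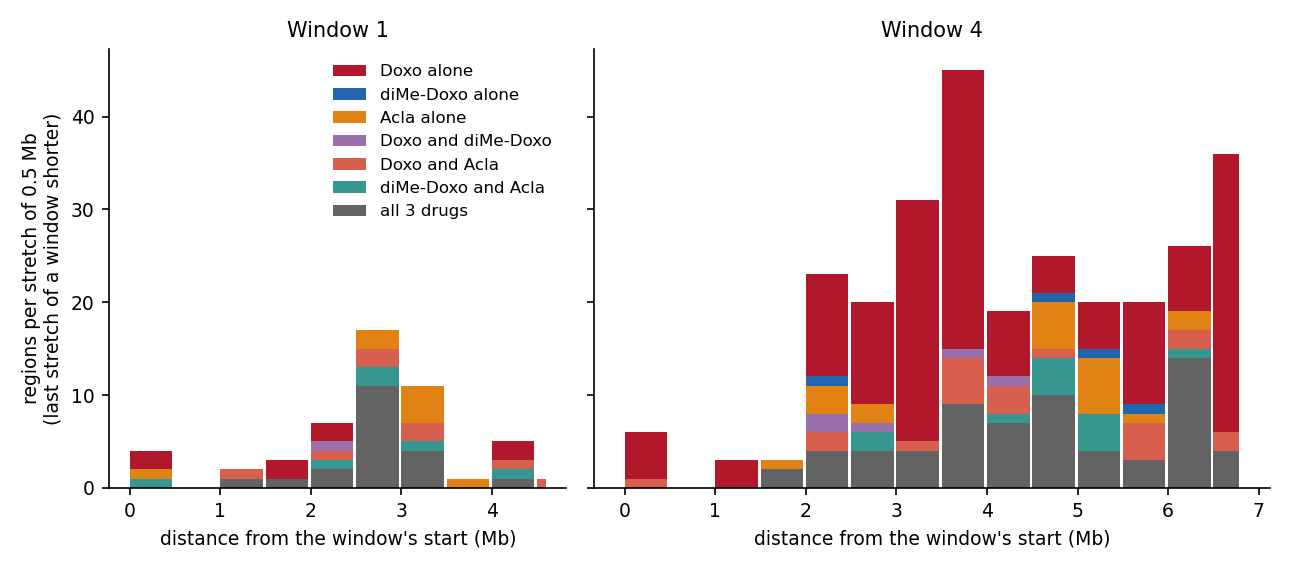
Number of union regions (y axis) in successive stretches of 0.5 Mb along windows 1 and 4, against distance from the start of the window in Mb (x axis), stacked by the lists that hold them. Window 1 peaks at 17 regions with none of Doxo alone, and window 4 rises from 12 regions in its first 2 Mb to 45 regions in 1 stretch, 30 of them of Doxo alone.

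The folds over control are the authors' deposited values, and since the lists were made by this contrast they are given as a description. The median log2 fold of members in the Doxo list was 3.08 (3.19 in the rest, 2.95 in the genome). It was 2.47 in the diMe-Doxo list (2.42 and 2.52) and 2.58 in the Acla list (2.44 and 2.62). Under the stricter limits given above, 171 of 296 Doxo members passed (57.8%), against 48.8% of the whole Doxo list and 59.3% in the rest of the chromosome. For diMe-Doxo 38 of 125 passed (30.4%), against 38.1% of its list and 30.5% in the rest. For Acla 77 of 178 passed (43.3%), against 42.8% of its list and 33.2% in the rest.

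In regions of all 3 drugs the highest of the authors' folds was usually that for Doxo. This held for 64 of 92 members, while Acla was highest at 24, diMe-Doxo at 2, and the others were tied. In window 4 Doxo was highest at 51 of 65 (78.5%), near the 84.3% of the rest of the chromosome. In window 1 Doxo and Acla were each highest at 9 of 20 regions, near the genome, where Doxo was highest at 47.5% and Acla at 37.9%.

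No peak was called in either control library at 302 of 353 members (85.6%), near the 85.9% of the genome and 82.8% of the rest, and peaks in both at 25. Regions with a control peak were often of Doxo alone: 34 of 51 in the windows (66.7%), 75.7% in the rest and 51.0% in the genome. Of the 39 such regions in window 4, 31 were of Doxo alone, and of the 12 in windows 1 to 3, 3 were. At regions with 1 read in each control library the Doxo-alone share was 28.4% in the windows (19.7 to 39.0, Wilson 95% interval) and 36.6% (32.0 to 41.5) in the rest, intervals that overlap. The genome share was 18.1%. Members had a median width of 774 bp. Those of all 3 drugs had a median of 1090 bp and those of Doxo alone 638 bp, beside 1019 and 600 bp over the genome and 1024 and 663 bp in the rest.

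Doxo and diMe-Doxo share dose and time, and they form the only pair tested. Of the 353 members 98 were in both lists. The deposited signal of diMe-Doxo was put on the scale of the Doxo list through the shared control libraries, and log2(signal + 1) was tested with limma over all 33140 regions of the genome in both lists. Signal was higher with Doxo at 45 of the 98 members (Benjamini-Hochberg adjusted p at most 0.05 over all regions), where 28.2% of regions in the genome were called higher. By limma it was lower with Doxo at 0 members and at 0 of 518 regions in the rest of the chromosome, where 2.73% of the genome was called lower. That background moved between 0.293% (without diMe-Doxo library 1) and 5.05% (without Doxo library 2) when 1 library was left out, and stood at 4.55% without Doxo library 1 and 1.03% without diMe-Doxo library 2. At an unadjusted limma p under 0.05 no member was lower, beside 1 of 518 regions in the rest and 1734 of 33140 in the genome. The edgeR test, run on whole reads recovered from the signal, called 45 members higher (28.9% of the genome) and 0 lower (2.72%).

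The calls were spread unevenly. In window 4, 36 of 70 shared regions were higher with Doxo, against 5 of 21 in window 1, 2 of 5 in window 2 and both regions of window 3. In the rest of the chromosome 321 of 518 (62.0%) were higher, and in the genome 28.2%. The median log2 difference, Doxo minus diMe-Doxo, was 0.71 over the members, 1.09 in window 4, 0.34 in windows 1 to 3, 1.26 in the rest and 0.25 in the genome. Relative to the genome median the members stood at 0.47, window 4 at 0.84, windows 1 to 3 at 0.09 and the rest at 1.02. Windows 1 to 3 were not separated from the genome, at -0.012 without Doxo library 1 and -0.018 without Doxo library 2. With regions limited to a mean signal of at least 20, 65 members remained. They stood at 1.18, window 4 at 1.58, windows 1 to 3 at 0.004 and the rest at 1.35, so window 4 then lay above the rest. Scaling by TMM moved the genome median to -0.07 and left the members at 0.47 relative to it, with 43 called higher (22.9% of the genome) and 2 lower (9.44%), the latter being chr19:22686947-22688537 and chr19:58595872-58597540. The difference was positive at 88 of the 98 members, 473 of 518 regions in the rest and 21680 of 33140 in the genome. With TMM scaling it was positive at 69 members, 411 regions in the rest and 15286 in the genome.

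**Figure D4:**
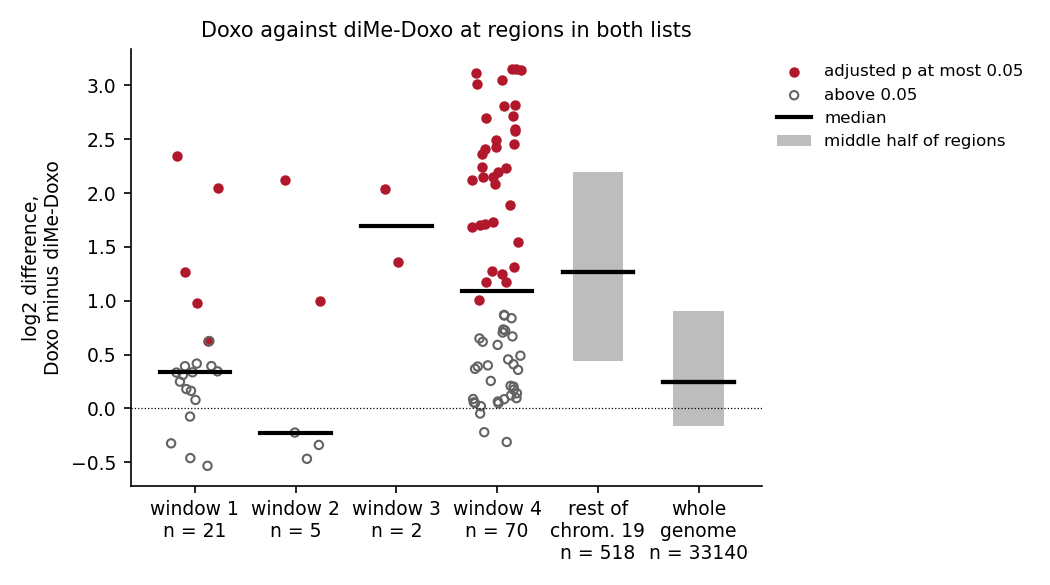
Log2 difference in signal, Doxo minus diMe-Doxo (y axis), at regions in both lists. Each point is a member of windows 1 to 4, filled where the limma adjusted p was at most 0.05, black lines are medians, and grey boxes span the middle of the distribution from the lower to the upper quartile in the rest of chromosome 19 and the genome. Points of window 4 spread from -0.31 to 3.15, while the median of window 1 is 0.34, beside 0.25 in the genome.

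In window 4 the lowest adjusted p of the drug pair was at chr19:56125348-56128573, a region of 3225 bp in all 3 lists. The signal was 421.52 and 439.34 in the Doxo libraries, against 12.97 and 1.39 in the controls. On the scale of its own list diMe-Doxo gave 83.89 and 65.75 (controls 21.66 and 2.03), and Acla gave 55.29 and 81.08 (controls 25.65 and 2.44). Every treated library was above every control library, and the authors' log2 folds were 5.91 (Doxo), 2.66 (diMe-Doxo) and 2.28 (Acla). The difference between Doxo and diMe-Doxo was 3.15 ± 0.20 on the log2 scale (SE, 2 libraries per drug; limma adjusted p = 1.57e-15).

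The region with the lowest FDR for Doxo in any window was chr19:58879053-58880923, near the end of the long arm. Doxo gave 192.63 and 199.25 against controls at 2.88 and 1.39, and the authors' log2 folds were 6.52 (Doxo), 3.45 (diMe-Doxo) and 3.40 (Acla). Doxo exceeded diMe-Doxo by 3.01 ± 0.23 (limma adjusted p = 1.17e-13). The drugs were closer together at chr19:57351247-57352304, where Doxo gave 88.85 and 70.41, diMe-Doxo 57.12 and 45.98, and Acla 41.10 and 35.74, each on the scale of its list and over 1 read per control library. The authors' folds there were 5.82, 4.54 and 3.86, and the difference between Doxo and diMe-Doxo was 1.24 (limma adjusted p = 4.87e-05).

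At chr19:54494409-54495924 no difference between the pair was detected. Doxo gave 39.81 and 36.61, diMe-Doxo 60.24 and 49.66, and Acla 83.69 and 75.32, on the separate scales of their lists. The authors' log2 folds were 3.77, 3.70 and 3.96. The difference between Doxo and diMe-Doxo was 0.12, with a 95% interval from -0.41 to 0.65 (limma adjusted p = 0.81). Regions of Doxo alone in window 4 ranged from the strong to the already open. At chr19:54376853-54377799 Doxo gave 78.90 and 86.60 over controls at 2.88 and 1.39, a log2 fold of 5.28 in the authors' deposited table. The widest member of all, chr19:56089142-56092618 at 3476 bp, had 283.62 and 319.65 with Doxo over 70.61 and 87.35, with peaks in both controls and a log2 fold of 1.93.

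In window 1 the region with the lowest FDR for Doxo was chr19:21769055-21770894, outside the dense span. Doxo gave 164.91 and 205.59 over controls at 1.44 and 6.93, with authors' log2 folds of 5.47 (Doxo), 3.47 (diMe-Doxo) and 3.03 (Acla). Doxo exceeded diMe-Doxo by 2.05 ± 0.22 (limma adjusted p = 3.36e-10). Within the dense span 2 of the 15 regions in both lists were higher with Doxo, where 28.2% of such regions in the genome were. The median difference of these 15 regions was 0.33, beside 0.25 in the genome. At chr19:22692889-22694559, which had the lowest FDR of the window for both diMe-Doxo and Acla, the authors' folds were 5.38, 4.35 and 4.91 for Doxo, diMe-Doxo and Acla. Acla gave 136.36 and 107.98 there, and the difference between Doxo and diMe-Doxo was 0.98 ± 0.22 (limma adjusted p = 0.000481).

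Close by, chr19:22686947-22688537 (chosen after its values were seen) gave 27.01 and 31.68 with Doxo, while diMe-Doxo gave 71.84 and 56.10 and Acla 108.34 and 80.31, each on the separate scale of its list, with authors' log2 folds of 3.78, 4.23 and 4.53. Its difference of Doxo from diMe-Doxo was -0.46 (limma adjusted p = 0.221), and -0.79 with TMM scaling (adjusted p = 0.0115), so the call turned on the scaling. At the widest region of the window, chr19:22700381-22702670, the folds were 2.93, 2.22 and 2.53, and 1 control library held 15 reads while the other held 1. Doxo exceeded diMe-Doxo there by 0.63 (limma adjusted p = 0.0258), a call lost with TMM scaling (adjusted p = 0.129) and without Doxo library 1 (0.109), Doxo library 2 (0.15) or diMe-Doxo library 2 (0.225). The region of Doxo alone with the lowest FDR, chr19:21665665-21666938, had peaks in both controls and rose from 17.29 and 30.50 to 161.36 and 154.19.

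The first 0.5 Mb of window 2 held 8 regions, 7 in the Doxo list and 1 in the diMe-Doxo list. At its start lay chr19:36603519-36604468, of Doxo alone, with 93.83 and 92.23 over 1.44 and 12.48. At chr19:36610971-36613108 Doxo gave 217.51 and 212.63 over 2.88 and 11.09, a log2 fold of 4.94 in the authors' table, while Acla gave 30.63 and 64.94 and a fold of 1.92. The widest region, chr19:36640721-36643506 at 2785 bp, was of Doxo alone at a fold of 3.66, and its controls were uneven at 1.44 and 29.12. Of the regions shared by the pair, chr19:37095442-37096487 had authors' folds of 5.14, 2.90 and 3.54 for Doxo, diMe-Doxo and Acla, and Doxo exceeded diMe-Doxo by 2.12 ± 0.31 (limma adjusted p = 4.12e-07). At chr19:37504432-37506425 the authors' folds were 3.54, 3.82 and 3.96 for Doxo, diMe-Doxo and Acla. Its difference was -0.22, with a 95% interval from -0.76 to 0.31 (limma adjusted p = 0.612), so no difference was detected.

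All 6 regions of window 3 can be given. Both regions of all 3 drugs were higher with Doxo than with diMe-Doxo, by 2.04 ± 0.31 at chr19:44999286-44999979 (limma adjusted p = 8.94e-07) and by 1.36 at chr19:44587894-44589241 (adjusted p = 0.000743). The first of these had authors' folds of 5.09, 2.95 and 2.88 for Doxo, diMe-Doxo and Acla, and the other 3.23, 1.82 and 2.73. The region at chr19:44999286-44999979 is also the last inside the window, its midpoint 0.368 kb from the edge, and the next region outside, chr19:45001719-45003849, was of Doxo and Acla. The other members were missing from the Doxo list except chr19:44301376-44302150, which was of Doxo and Acla at folds of 2.91 and 2.10. At chr19:44562355-44564047, chr19:44955973-44957441 and chr19:44977287-44978219 the folds were 2.47, 1.79 and 1.92 for diMe-Doxo and 3.18, 2.52 and 2.45 for Acla.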

How the data were processed

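Each deposited list gives, on GRCh37, the regions whose signal with a drug exceeded the control, and per the submitters' processing notes DiffBind was used. Aligner and peak caller were not given in the sources used here. Deposited columns, as made by the authors, hold log2 concentrations and log2 fold, p-value and FDR (q-value), normalised signal for 2 treated and 2 control libraries, and the number of libraries with a called peak, read from the values since the files have no header. All deposited signal values were whole multiples (within 0.1 read) of the signal of 1 read, so whole reads were recovered.

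Regions of the 3 lists were identical or did not overlap, and lists were joined on them. Densities used the span of listed regions without empty stretches over 1 Mb, with exact Poisson intervals. Shares carry Wilson intervals and their differences Newcombe intervals. Doxo and diMe-Doxo were compared with limma 3.58.1 (trend) on log2(signal + 1), after multiplying diMe-Doxo signal by 0.640, with Benjamini-Hochberg adjustment. edgeR 4.0.16 was an alternative, and both were tested on simulated data. Intervals of a difference come from the same fit. Named regions were, in each window, those with the lowest FDR in each list and among regions of Doxo alone, the widest, and the lowest adjusted p for the drug pair, with the 0.5-Mb stretches holding the most and fewest regions. Window 3 was given in full. The planned gene context, sequence features and regions at named genes were left out, since no genome or annotation of the build was used here. The windows, members and lists were chosen with earlier results of these data known.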

Additional observations from a re-analysis of the deposited data

How the results depend on the processing

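Main results for the 4 windows together and for regions named by the rules above kept direction and side of the threshold under the alternatives. The exceptions were the values given here and the call at chr19:22700381-22702670 described above. The alternatives were other lengths, stricter limits, no control peak, base pairs covered and the rest without the short-arm zinc finger clusters. Others were whole regions inside the window, edgeR, TMM scaling, a pseudocount of 5, a signal minimum of 20 and leaving out each treated library. Other results were less stable. Without Doxo library 1 or 2 the median of windows 1 to 3 fell just below that of the genome. The window 2 median turned from -0.22 to 0.14 without Doxo library 1, and calls there fell from 2 to 1 with TMM. The order of window 4 and the rest reversed at a signal minimum of 20. The region chosen after its values were seen was called lower with TMM. Alternatives on windows 1 to 3 and on leaving out only the longest empty stretch were chosen after seeing the data. So were those on regions with 1 read in each control and on edgeR with TMM. Windows 1 to 3 alone gave density ratios of 0.232 (union), 0.177 (Doxo), 0.494 (diMe-Doxo) and 0.477 (Acla), and membership differences from the rest of -40.0 points for Doxo alone, 14.7 for all 3 drugs and 22.6 for regions without Doxo, against -13.0, 5.22 and 11.1 with window 4. Window 4 therefore sets much of the value for all windows together. At regions with 1 read in each control the differences were -8.25 points for Doxo alone and 1.96 for all 3 drugs. With a mean signal of at least 20, the members' median difference of Doxo from diMe-Doxo relative to the genome was 1.18 in place of 0.47. The Acla ratio was 0.851 under the stricter limits, with no interval computed. TMM scaling, with limma or with edgeR, called 2 members lower with Doxo and 43 higher. The genome shares were 9.44% lower and 22.9% higher with limma, and 10.6% and 23.6% with edgeR. At chr19:54494409-54495924 the difference turned to -0.20 with TMM, -0.21 with edgeR and TMM, none past the threshold, and ranged from -0.014 (without diMe-Doxo library 2) to 0.257 (without diMe-Doxo library 1). Leaving out 1 library left the members' median difference of Doxo from diMe-Doxo, relative to the genome, between 0.443 and 0.646. With a single library left for 1 drug, that library is assumed to vary like the other drug's. Requiring a larger overlap between lists changes nothing, since no regions overlap in part. No paired analysis was possible because the library columns carry no labels that pair them across drugs, and the numbers 1 and 2 are only their column order. Depth limits regions with 1 read per control library, where a fold rests on the treated reads.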

Other observations

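Zinc finger genes also cluster on the short arm of chromosome 19, outside the 4 windows. The 2 short-arm clusters held 21 and 24 union regions, 0.249 and 0.328 of the density of the rest of the chromosome, and the ratio for windows 1 to 3 was 0.232. Drug membership in the cluster of 24 regions was not that of window 1. All 24 were in the Doxo list, 2 in the diMe-Doxo list and 3 in the Acla list, and 21 were of Doxo alone, against 8 of 51 regions in window 1. No listed region lay between 11785337 and 12624185 (0.839 Mb) in that cluster. The cluster of 21 regions held 18 Doxo, 13 Acla and 5 diMe-Doxo regions. The longest stretch of the chromosome without a listed region runs from 24346328, at the end of the last member of window 1, to 28286256 (3.94 Mb). It was left out of the lengths used for densities, and whether reads can be mapped there was not examined.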
